A study of Mus musculus with 21 samples.

Results

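Klf2, S1pr1, S1pr4 and Cd69 are grouped here as 4 genes linked to whether a lymphocyte stays in a lymphoid organ or leaves it. The link is least direct for S1pr4. They were taken by symbol from the table of gene counts, as 4 of its 23337 gene symbols, and were followed in all 9 combinations of tissue and cell kind. All 4 passed the filter on low counts in every fit.

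Lymphocytes leave lymphoid organs along a gradient of sphingosine 1-phosphate (S1P), a lipid that is scarce in the tissue and plentiful in blood and lymph. S1PR1 is the receptor that senses this gradient, and Klf2, a zinc finger transcription factor of resting lymphocytes, drives S1pr1, as shown best in mouse T cells. CD69, a membrane protein of freshly activated lymphocytes, binds S1PR1 and draws it off the surface, while S1PR4 is a further S1P receptor of lymphoid cells. These roles are background and were not measured here, and the counts report RNA rather than surface protein.

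The series holds bulk RNA sequencing of B cells sorted straight into TRIzol from Peyer's patches (PP, which are clusters of follicles along the small intestine), mesenteric lymph nodes (mLN, which drain the gut) and spleen. Self-reactive B cells in the gut are its subject. All mice were of strain C57BL/6 and 8 to 12 weeks old, and mice of a group shared a cage. BCL2 HEL pos cells have 3 libraries per tissue (922, 926 and 950), HEL pos cells have 3 (a pool, 392 and 399), and HEL neg cells have 1 pool, which gives 21 libraries. The labels expand neither HEL nor BCL2, name no promoter or cell type that drives a transgene, and do not say how many mice a pool holds or whether a numbered library is 1 mouse. The p-values therefore set differences against the spread of these libraries, part of which may be technical.

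Each library held between 5475131 and 11340876 counts over 12747 to 18206 detected genes. All 8 B cell markers were detected in every library, at a summed 9480 to 10400 CPM in mLN HEL pos libraries and 21100 to 22000 CPM in spleen HEL pos libraries, with all others between. CPM stands for counts after scaling to equal TMM-corrected totals, except for cell type and Y-linked markers. Their values, here and below, use plain library totals. Markers of gut epithelium summed to 37.8 to 182 CPM in PP BCL2 HEL pos libraries, 243 to 863 CPM in PP HEL pos libraries and 998 CPM in the PP HEL neg pool, against 12.9 to 71.7 CPM in all mLN and spleen libraries. Markers of T and NK cells, which also use Klf2 and S1pr1, summed to 6.94 to 62.7 CPM, with the highest values among mLN HEL pos libraries (14.6 to 62.7 CPM). Of the 8 endothelial markers Pecam1, which B cells also express, stood at 113 to 281 CPM, while Cdh5, Kdr and Tek were at or near 0 in every library (at most 1.58, 1.73 and 0.696 CPM). Libraries 392 and 399 of HEL pos cells held at most 0.869 CPM of Y-linked transcripts in every tissue, against 92.3 to 168 CPM in all other libraries. These transcripts therefore move with the contrast of BCL2 HEL pos and HEL pos cells, and with that of HEL pos and HEL neg cells.

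The genes lie on separate chromosomes of build mm10: Klf2 at chr8:72319033-72321656 on the plus strand, S1pr1 at chr3:115710433-115715072, S1pr4 at chr10:81497747-81500132 and Cd69 at chr6:129267325-129275436, all 3 on the minus strand (GENCODE M21). The counts cover the exons of each gene, whose union is 1847 bases for Klf2, 3046 for S1pr1, 2386 for S1pr4 and 6509 for Cd69. Promoters of Klf2 and S1pr4, the only members with an entry in the promoter source, are shown as the bases before their start sites (RefSeq, GRCm38.p6).
Klf2 promoter, chr8:72318812-72319032, plus strand: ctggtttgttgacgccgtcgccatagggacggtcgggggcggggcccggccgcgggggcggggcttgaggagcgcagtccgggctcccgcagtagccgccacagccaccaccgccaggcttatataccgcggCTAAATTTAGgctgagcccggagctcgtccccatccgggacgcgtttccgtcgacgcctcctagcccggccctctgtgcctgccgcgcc
S1pr4 promoter, chr10:81500138-81500387, minus strand: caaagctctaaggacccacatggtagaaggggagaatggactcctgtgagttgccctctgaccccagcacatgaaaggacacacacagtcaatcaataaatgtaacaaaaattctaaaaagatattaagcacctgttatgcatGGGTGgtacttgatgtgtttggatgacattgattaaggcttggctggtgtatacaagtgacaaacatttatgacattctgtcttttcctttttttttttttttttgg
Capitals in Klf2 mark the MEF2 site, which lies 118 to 109 bases before the start and reads the same on both strands. Capitals in S1pr4 mark CACCC on the opposite strand, the box that KLF factors recognise, 107 to 103 bases before the start. The last 29 bases before the RefSeq start of Klf2 are left out because the GENCODE exon covers them.

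The promoters differed in makeup as much as in motifs. The 250 bases before the Klf2 start held 71.2% G and C and those of S1pr4 38.8%, against a median of 52.4% over the 32851 promoters of the table. A MEF2 site was present in 1.7% of those promoters. The KLF box CACCC was present in 52.0%, once in Klf2 (19 to 15 bases before the start) and once in S1pr4, so its presence sets neither apart. Klf2 held the GC box GGGCGG at 2 places and S1pr4 at none, and 32.7% of promoters held it. Neither window held the letters GTAAACA (FOXO, in 3.2% of promoters), TGANTCA (AP-1, 6.7%) or the NF-kB site (1.4%). Both strands were searched, and no matches of different motifs overlapped in these promoters. The table holds no entry for S1pr1 or Cd69.

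Klf2 was highest in spleen and low in PP and mLN of both BCL2 HEL pos and HEL pos cells, while the HEL neg pools showed the opposite order. Klf2 of BCL2 HEL pos cells stood at 75.3, 42.1 and 35.4 CPM in PP (libraries 922, 926 and 950), at 63.4, 53.6 and 58.5 CPM in mLN and at 166, 196 and 160 CPM in spleen. In HEL pos cells it stood at 81.1, 50.8 and 38.7 CPM in PP (the pool, 392 and 399), at 41.3, 33.5 and 28.0 CPM in mLN and at 156, 219 and 103 CPM in spleen. Every PP and mLN library of these kinds lay below every spleen library. The HEL neg pools gave 149 CPM in PP (95% Poisson interval 139 to 159), 208 CPM in mLN (197 to 220) and 83.4 CPM in spleen (76.9 to 90.3), so spleen was lowest there. Those intervals cover counting error only.

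**Figure D1:**
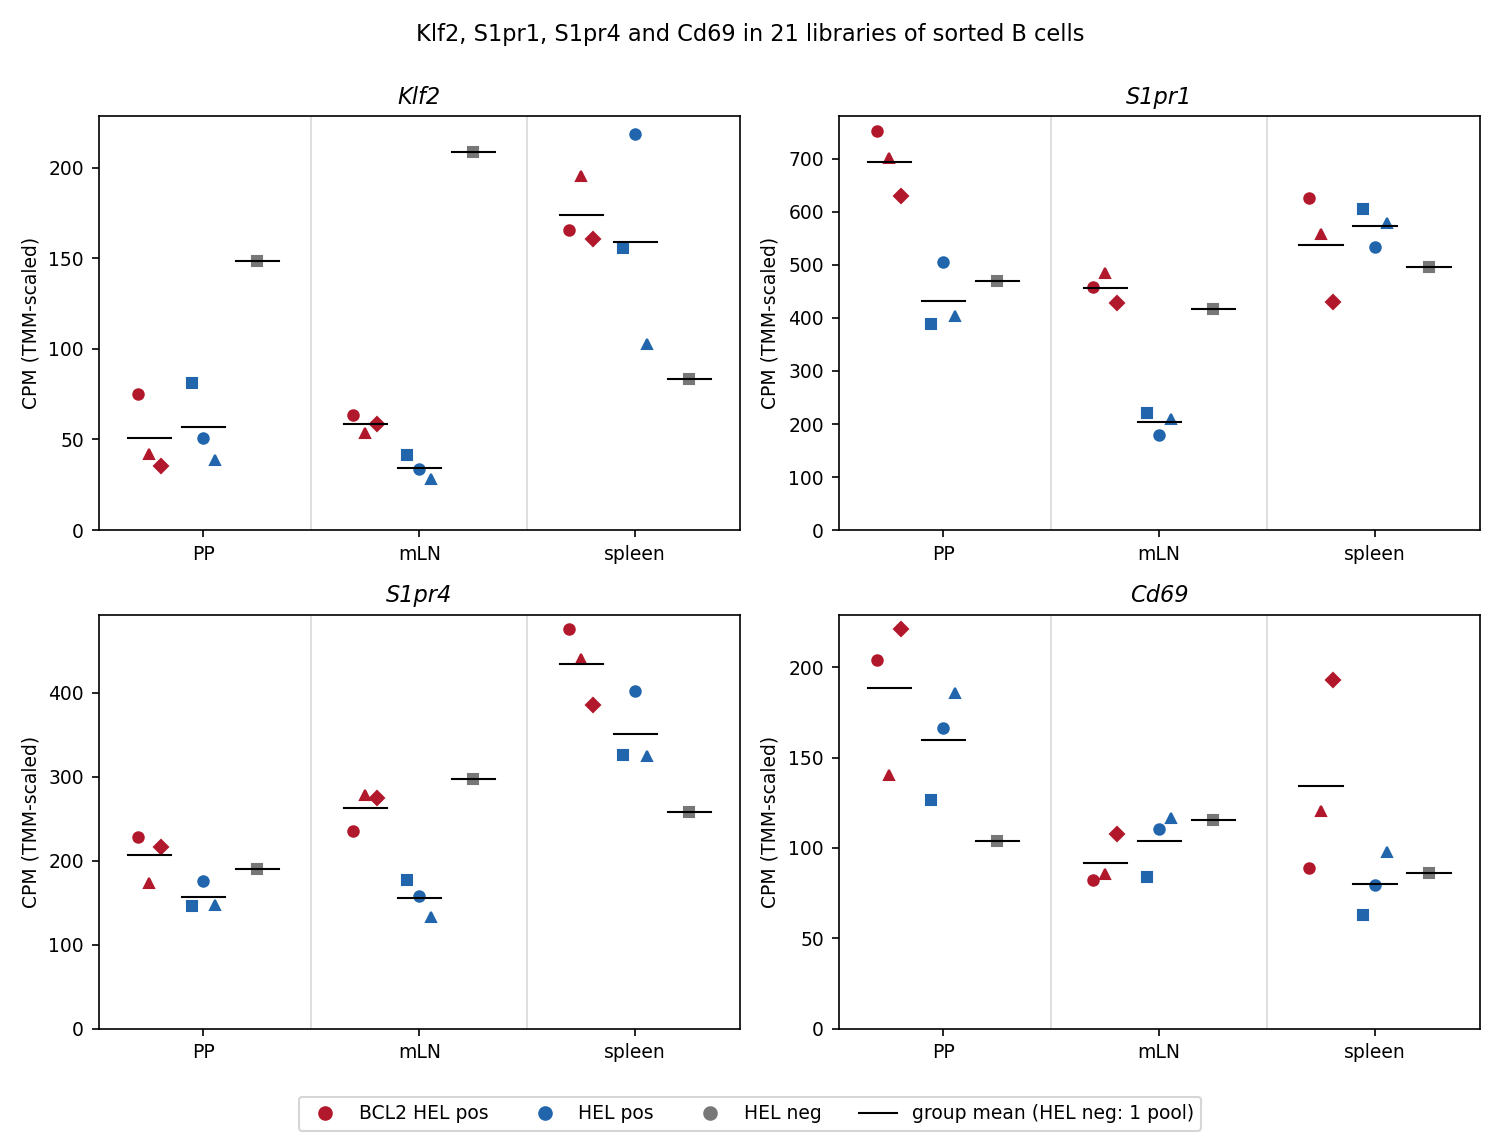
Levels of the 4 genes in CPM of TMM-scaled totals, on linear axes from 0, by tissue and cell kind; squares are pools, circles 392 or 922, triangles 399 or 926, diamonds 950, and bars are group means. Klf2 and S1pr4 of BCL2 HEL pos and HEL pos cells sit highest in spleen, S1pr1 is lowest in mLN HEL pos cells (179 to 221 CPM), and Cd69 group means of these 2 kinds are highest in PP.

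In HEL pos cells Klf2 fell by 1.48 ± 0.28 on the log2 scale in PP relative to spleen (SE, 3 libraries each, adjusted p = 0.00103), or 2.78-fold. In mLN relative to spleen it fell by 2.20 ± 0.29, or 4.59-fold (adjusted p = 7.81e-06). A call here is an adjusted p under 0.05 in edgeR's quasi-likelihood test over all 11419 genes, which called 15.4% of them for PP against spleen and 24.5% for mLN against spleen, so such calls were common in these cells. Granulocyte markers moved with both comparisons, summing to 0.297 to 1.16 CPM in PP and at most 0.261 CPM in mLN HEL pos libraries, against 52.7 to 189 CPM in spleen HEL pos libraries. Their part in the values of the members was not tested. The difference between PP and mLN, 0.72 ± 0.28, was not called (adjusted p = 0.111), and the PP pool of 81.1 CPM carries much of it: without that library it was 0.37. In this comparison 8.86% of genes were called. As in all bulk samples, fewer cells that express a gene and less RNA per cell cannot be told apart.

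Klf2 of BCL2 HEL pos cells also lay below spleen in both tissues, and here granulocyte markers summed to at most 0.567 CPM in every library. It fell by 1.80 ± 0.28 or 3.49-fold in PP (adjusted p = 0.000313) and fell by 1.59 ± 0.28 or 3.01-fold in mLN (adjusted p = 0.000779), where 7.34% and 10% of all genes were called. With the library label as a block over every tissue, 1773 genes were called between mLN and spleen in place of 1142, Klf2 among them. PP and mLN were not called apart, at -0.21 ± 0.28 (adjusted p = 0.87), in a comparison that called 1.16% of genes. All 4 Klf2 calls against spleen held with any library left out, with values from -2.43 to -1.21 on the log2 scale.

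S1pr1 did not follow the same order. Per length its group means exceeded those of every other member but for S1pr4 in spleen BCL2 HEL pos cells (182 against 177 CPM per kb for S1pr1). They ran from 228 ± 20.1 CPM per kb in PP BCL2 HEL pos cells (SD, n = 3) to 66.7 ± 7.05 CPM per kb in mLN HEL pos cells, beside 27.6 ± 11.6 and 18.6 ± 3.63 CPM per kb for Klf2 in the same groups. BCL2 HEL pos cells had S1pr1 at 752, 703 and 630 CPM in PP, 459, 484 and 429 CPM in mLN and 626, 559 and 430 CPM in spleen. The HEL pos libraries gave 389, 505 and 404 CPM in PP, 221, 179 and 209 CPM in mLN and 606, 534 and 580 CPM in spleen. The 3 mLN HEL pos libraries were the lowest of all 21 by a wide gap, the next being 389 CPM. They also had the lowest B cell marker sums, whose part in the level was not tested. The HEL neg pools lay close together, at 469 CPM in PP, 417 CPM in mLN and 496 CPM in spleen.

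Among HEL pos cells S1pr1 fell by 1.49 ± 0.14 in mLN relative to spleen (2.80-fold, adjusted p = 2.49e-07), and it was higher in PP than in mLN by 1.08 ± 0.14 (2.12-fold, adjusted p = 0.000163). PP lay below spleen, at -0.41 ± 0.14 with groups that did not overlap, but this was not called (adjusted p = 0.0572). The library label was taken to pair PP and spleen of these cells. With it as a block, which also ties in mLN, the same difference was -0.40 and was called (adjusted p = 0.016). It was also called without library 392 of PP (-0.55) or of spleen (-0.48). For BCL2 HEL pos cells neither PP nor mLN was called apart from spleen, at 0.34 ± 0.14 (adjusted p = 0.168) and -0.25 ± 0.14 (adjusted p = 0.317). S1pr1 was higher in PP than in mLN BCL2 HEL pos cells by 0.59 ± 0.14 (adjusted p = 0.0408). That call was lost on leaving out any library of these 2 groups other than PP 950, with values from 0.53 to 0.64.

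S1pr4 ran with Klf2. It stood at 228, 174 and 217 CPM in PP, 235, 278 and 274 CPM in mLN and 476, 441 and 386 CPM in spleen of BCL2 HEL pos cells. HEL pos cells had 146, 176 and 148 CPM in PP, 177, 158 and 133 CPM in mLN and 326, 402 and 325 CPM in spleen. Spleen libraries lay above all PP and mLN libraries in both kinds, without overlap. The HEL neg pools had 190 CPM in PP, 297 CPM in mLN and 258 CPM in spleen.

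Relative to spleen S1pr4 of HEL pos cells fell by 1.16 ± 0.14 in PP (adjusted p = 1.46e-05) and fell by 1.16 ± 0.14 in mLN (adjusted p = 4e-06), or 2.23-fold each. The difference between PP and mLN was -0.0031 ± 0.14 (adjusted p = 0.993). For BCL2 HEL pos cells it fell by 1.10 ± 0.14 in PP (2.14-fold, adjusted p = 4.16e-05) and fell by 0.74 ± 0.14 in mLN (1.67-fold, adjusted p = 0.00153), with PP against mLN at -0.36 ± 0.14 (adjusted p = 0.295). These 4 calls against spleen held with any library left out.

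Cd69, whose protein takes S1PR1 off the cell surface, had its highest group means in PP of BCL2 HEL pos and HEL pos cells. BCL2 HEL pos libraries had 204, 140 and 221 CPM in PP, 82.4, 85.5 and 108 CPM in mLN and 88.9, 120 and 193 CPM in spleen. HEL pos libraries had 127, 166 and 186 CPM in PP, 83.8, 111 and 117 CPM in mLN and 62.8, 79.2 and 97.8 CPM in spleen. Within HEL pos cells the PP libraries did not overlap those of mLN or spleen. Within BCL2 HEL pos cells the spleen library 950, at 193 CPM, lay among the PP values. The HEL neg pools differed little, at 104 CPM in PP, 115 CPM in mLN and 86.1 CPM in spleen.

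Cd69 rose in PP relative to spleen in HEL pos cells by 1.00 ± 0.24 on the log2 scale, 2.00-fold (adjusted p = 0.00635). Without the PP libraries 399 and Pool, which carry the most epithelial transcripts (863 and 739 CPM, against 243 CPM in 392), the difference was 1.04 with an adjusted p of 0.0567. That leaves 1 PP library, assumed to vary like the other groups. The part of epithelial RNA in the level was not tested otherwise. In mLN relative to spleen Cd69 differed by 0.39 ± 0.24 (adjusted p = 0.256), and PP exceeded mLN by 0.61 ± 0.24 (adjusted p = 0.106), neither of them called.

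Among BCL2 HEL pos cells Cd69 was higher in PP than in mLN by 1.03 ± 0.24 (2.04-fold, adjusted p = 0.0351). The call was lost without any of these 6 libraries other than PP 926, at 0.92 to 1.16. Against spleen it was not called in PP, at 0.47 ± 0.23 (adjusted p = 0.274). In mLN it stood at -0.56 ± 0.24 (adjusted p = 0.152). The library label was taken to pair mLN and spleen of these cells. With it as a block, which also ties in PP, the mLN value was -0.52 and was called (adjusted p = 0.0195). The spleen library 950 weighs on both values: without it they were 0.83 for PP (adjusted p = 0.0374) and -0.20 for mLN. Without spleen library 922 the mLN value was -0.78 and was called (adjusted p = 0.049).

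**Figure D2:**
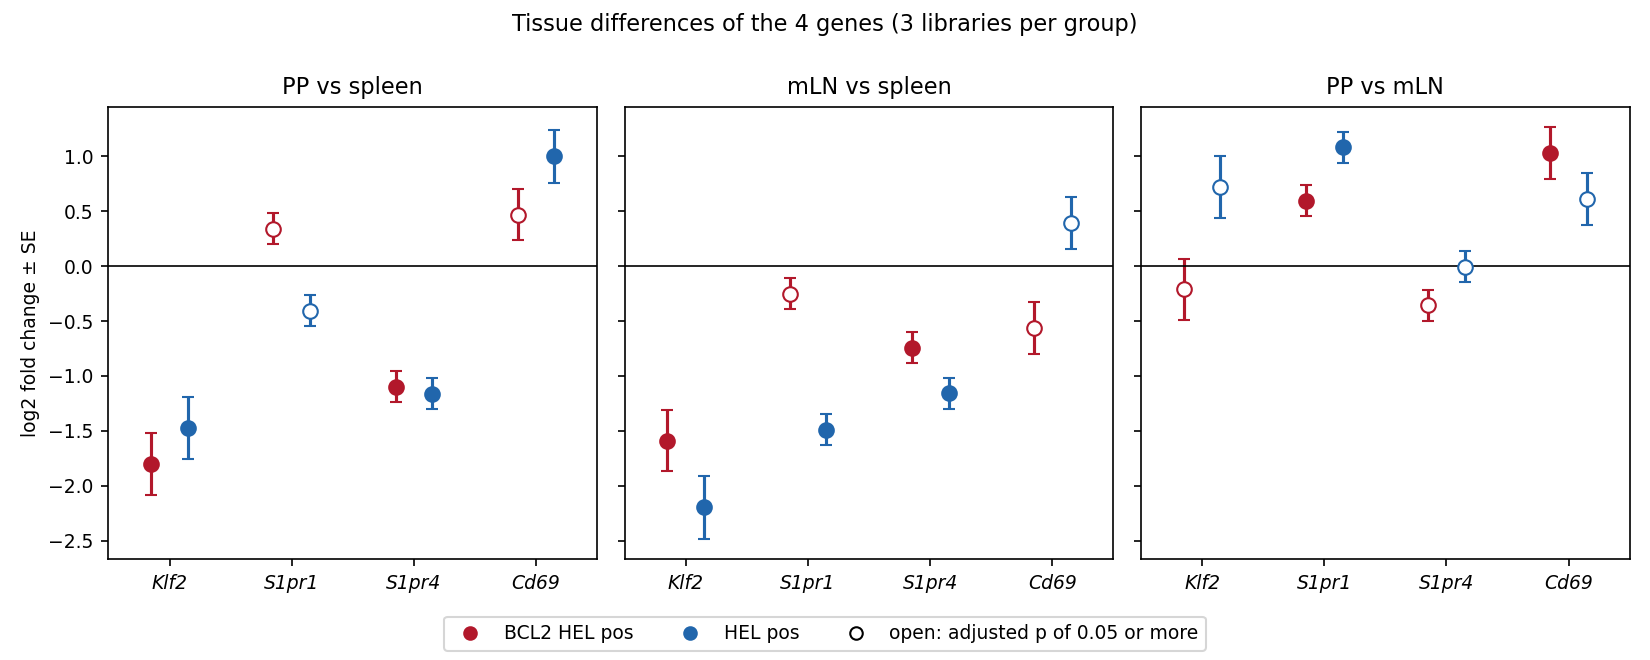
Log2 fold changes of the 4 genes between tissues with standard errors, for BCL2 HEL pos and HEL pos cells (3 libraries per group); filled points have an adjusted p under 0.05 over 11419 genes. Klf2 and S1pr4 lie below 0 in all 4 comparisons against spleen, and S1pr1 of HEL pos cells lies at -1.49 in mLN and, not called, at -0.41 in PP.

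BCL2 HEL pos cells were set against HEL pos cells within each tissue, which asks what goes with the BCL2 label at a given site. In mLN S1pr1 was higher in BCL2 HEL pos cells by 1.16 ± 0.14, 2.23-fold (adjusted p = 3.45e-05), and S1pr4 by 0.74 ± 0.14, 1.67-fold (adjusted p = 0.00163). The groups did not overlap for either gene. Klf2 was also higher in each of the 3 mLN BCL2 HEL pos libraries than in any HEL pos library, by 0.75 ± 0.28, but was not called (adjusted p = 0.0892). Cd69 differed by -0.19 ± 0.24 (adjusted p = 0.665). In this tissue 11.7% of all genes were called.

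In PP S1pr1 was higher in BCL2 HEL pos cells by 0.67 ± 0.14, 1.59-fold (adjusted p = 0.00506), where 10.1% of genes were called. The other members were not called in PP, with S1pr4 at 0.38 ± 0.14 (adjusted p = 0.0863), Klf2 at -0.18 ± 0.28 (adjusted p = 0.721) and Cd69 at 0.23 ± 0.23 (adjusted p = 0.578). S1pr4 was called there without PP BCL2 HEL pos library 926 (0.50) or PP HEL pos library 392 (0.48). Epithelial markers were lower in these BCL2 HEL pos libraries (37.8 to 182 CPM) than in the HEL pos libraries (243 to 863 CPM). With 399 and Pool left out of PP HEL pos cells the S1pr1 value was 0.47 and no longer called (adjusted p = 0.22). Only library 392 then stands for these cells and is assumed to vary like the other groups, so the part of epithelial RNA was not tested by it.

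In spleen, where 9.37% of genes were called, only Cd69 passed, and its groups overlapped. It was higher in BCL2 HEL pos cells by 0.76 ± 0.24 (1.69-fold, adjusted p = 0.0481), and the call was lost without BCL2 HEL pos library 950 (0.38) or 926 (0.83) or HEL pos library 392 (0.73) or Pool (0.59). S1pr1 stood at -0.078 ± 0.14 (adjusted p = 0.791), S1pr4 at 0.32 ± 0.14 (adjusted p = 0.157) and Klf2 at 0.15 ± 0.27 (adjusted p = 0.793). Granulocyte markers summed to 52.7 to 189 CPM in spleen HEL pos libraries and at most 0.567 CPM in spleen BCL2 HEL pos libraries, and their part in these values was not tested.

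Immediate early and dissociation genes, which cell handling can induce, moved with the BCL2 label as well. Relative to HEL pos cells 6 of 16 were higher and none lower in PP BCL2 HEL pos cells, 8 higher and 1 lower in mLN, and 8 higher and none lower in spleen, with medians of 0.76, 1.01 and 0.77 on the log2 scale. Over all genes 10.1%, 11.7% and 9.37% were called in these tissues. The heat shock gene Hspa1a averaged 26.5 CPM in PP, 62.7 CPM in mLN and 121 CPM in spleen of BCL2 HEL pos cells, against 0.653, 3.34 and 4.17 CPM in the same tissues of HEL pos cells. Jun was higher by 1.65 ± 0.22 in PP, 1.67 ± 0.22 in mLN and 1.10 ± 0.21 in spleen. Their part in the differences of S1pr1, S1pr4 and Cd69 was not tested.

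The HEL pos libraries 392 and 399 lack Y-linked transcripts, while the HEL pos pools and all BCL2 HEL pos libraries carry them. Against the pools alone, an alternative added after the data were seen that assumes the lone pool varies like the replicated groups, S1pr1 was higher in BCL2 HEL pos cells by 1.05 in mLN (adjusted p = 0.0168) and by 0.84 in PP (adjusted p = 0.0328). S1pr4 in mLN was then higher by 0.57 and not called (adjusted p = 0.155).

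Whether the tissue differences themselves differ between the 2 kinds was tested as an interaction. S1pr1 fell less in mLN relative to spleen in BCL2 HEL pos than in HEL pos cells, with changes of -0.25 and -1.49 on the log2 scale. The difference between these changes was 1.24 ± 0.20 (adjusted p = 0.0129). By p this interaction stood 4th of 11419 genes, of which 0.385% were called. Without mLN BCL2 HEL pos library 922 the value was 1.23 with an adjusted p of 0.0516, and with any other library left out it was called at 1.12 to 1.36. The S1pr1 interaction for PP against spleen was 0.75 ± 0.20 (adjusted p = 0.259), in a test that called 0.00876% of genes, which is 1 gene.

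No other member passed an interaction test between these kinds without the library label as a block. With it the S1pr1 value for PP against spleen was 0.76 (adjusted p = 0.046) and that of Cd69 for mLN against spleen was -0.92 (adjusted p = 0.0291), both called. Each needs paired samples in both kinds. Same-label correlations were as low as 0.0533 for PP and spleen of BCL2 HEL pos cells and 0.0204 for mLN and spleen of HEL pos cells. The label was not taken to pair those samples, so both calls assume a pairing. Different-label correlations reached 0.0502 in BCL2 HEL pos cells and 0.101 in HEL pos cells, so the check does not show those samples to be unpaired. For Klf2 the interaction was -0.33 ± 0.39 for PP against spleen, 0.61 ± 0.39 for mLN against spleen and -0.94 ± 0.40 for PP against mLN, with adjusted p of 0.826, 0.711 and 0.448. For Cd69 in mLN against spleen it was, without the block, -0.95 ± 0.33 (adjusted p = 0.308). The test for PP against mLN also called 0.00876% of genes.

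**Figure D3:**
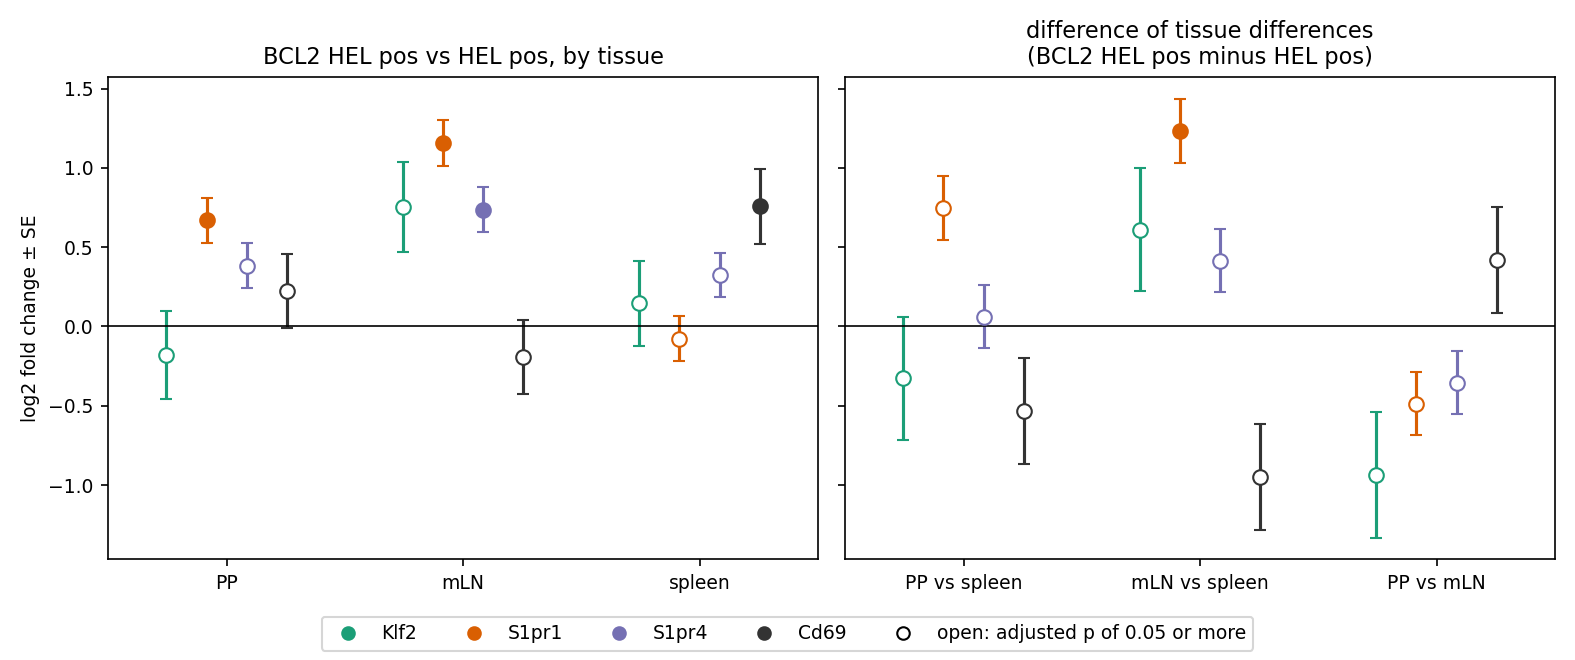
Left, log2 fold changes of BCL2 HEL pos against HEL pos cells by tissue; right, the difference between the tissue changes of BCL2 HEL pos and HEL pos cells, both with standard errors (filled: adjusted p under 0.05). S1pr1 is the highest point in PP and in mLN, at 0.67 and 1.16, and the filled point at right is its mLN against spleen interaction of 1.24.

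HEL neg cells have 1 pool per tissue, so their tissue differences are values with no test. Between the pools Klf2 was higher in PP than in spleen by 0.83 on the log2 scale (1.78-fold) and in mLN than in spleen by 1.32 (2.5-fold), the reverse of HEL pos cells. S1pr4 differed from spleen by -0.44 in PP and 0.21 in mLN, S1pr1 by -0.079 and -0.25, and Cd69 by 0.27 and 0.42. The HEL pos pools gave Klf2 at -0.94 in PP and -1.91 in mLN relative to the spleen pool.

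A fit of all 21 libraries that assumes the lone pools vary like the replicated groups tested whether the tissue changes differ between these kinds. Relative to spleen the mLN change in HEL pos cells differed from that in HEL neg cells by -3.53 ± 0.56 for Klf2 (adjusted p = 0.00125), -1.25 ± 0.29 for S1pr1 (adjusted p = 0.0182) and -1.38 ± 0.29 for S1pr4 (adjusted p = 0.011). S1pr1 was lower in mLN than in spleen in both kinds, so its value is a difference in size. In this test 2.66% of 13741 genes were called. Each of the 3 rests on 1 HEL neg pool per tissue. Cd69 stood at -0.042 ± 0.47 (adjusted p = 1). For PP against spleen the Klf2 value was -2.32 ± 0.54 (adjusted p = 0.0857), where 0.218% of genes were called. It was called without the PP HEL pos pool (-2.67) or spleen HEL pos library 399 (-2.55). No member was called for PP against mLN, where 0.138% were.

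Averaged over tissues, HEL pos and HEL neg cells were not called apart for any member, in a model of these 12 libraries with a term for tissue, which called 8.68% of 11406 genes. No member was called by DESeq2 either, and in edgeR Klf2 alone had an unadjusted p under 0.05. It stood at -1.35 ± 0.42 (adjusted p = 0.0593), and S1pr1, S1pr4 and Cd69 stood at -0.36, -0.30 and 0.11. An average hides the split by site: for Klf2 the HEL pos pool differed from the HEL neg pool by -2.33 in mLN, -0.88 in PP and 0.90 in spleen. Without the spleen HEL neg pool the average Klf2 difference was -2.05 and was called (adjusted p = 0.000449), as were S1pr1 at -0.61 and S1pr4 at -0.62, and without the mLN HEL neg pool Klf2 was at -0.44. Klf2 was also called without the PP HEL pos pool (-1.50) or spleen HEL pos library 392 (-1.42). BCL2 HEL pos cells were lower than HEL neg cells in Klf2, at -1.06 ± 0.35 (adjusted p = 0.0494), where 14.7% of 10987 genes were called. That call was lost on leaving out 9 of the 12 libraries in turn, with values from -1.08 to -0.53. Without the spleen HEL neg pool it was kept, at -1.71.

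Within the set, Klf2 and S1pr4 varied together across the 21 libraries, with Pearson's r of 0.792 and Spearman's rho of 0.808 between log2 CPM. S1pr1 followed both less closely, at r of 0.444 with Klf2 and 0.514 with S1pr4. Cd69 correlated weakly with all, at -0.307 with Klf2, 0.145 with S1pr1 and -0.306 with S1pr4. These libraries share tissues and cell kinds, so the coefficients describe the groups as much as single libraries and carry no p. Counts of Klf2 per count of S1pr4 were highest in the HEL neg pools of PP (0.781) and mLN (0.701), against 0.219 to 0.446 over the other group means.

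Counts of Cd69 per count of S1pr1, a ratio of the antagonist's transcript to that of its target, were 0.519 ± 0.124 in mLN HEL pos cells and 0.372 ± 0.0757 in PP HEL pos cells, against 0.140 ± 0.0332 in spleen HEL pos cells (SD, n = 3 each). The PP and mLN libraries did not overlap those of spleen. In BCL2 HEL pos cells the ratio was 0.274 ± 0.0755 in PP, 0.203 ± 0.0419 in mLN and 0.268 ± 0.16 in spleen, with overlapping ranges. In HEL neg pools it was 0.221 in PP, 0.276 in mLN and 0.174 in spleen. In mLN HEL pos cells the high ratio came with low S1pr1, and in PP HEL pos cells with high Cd69.

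**Figure D4:**
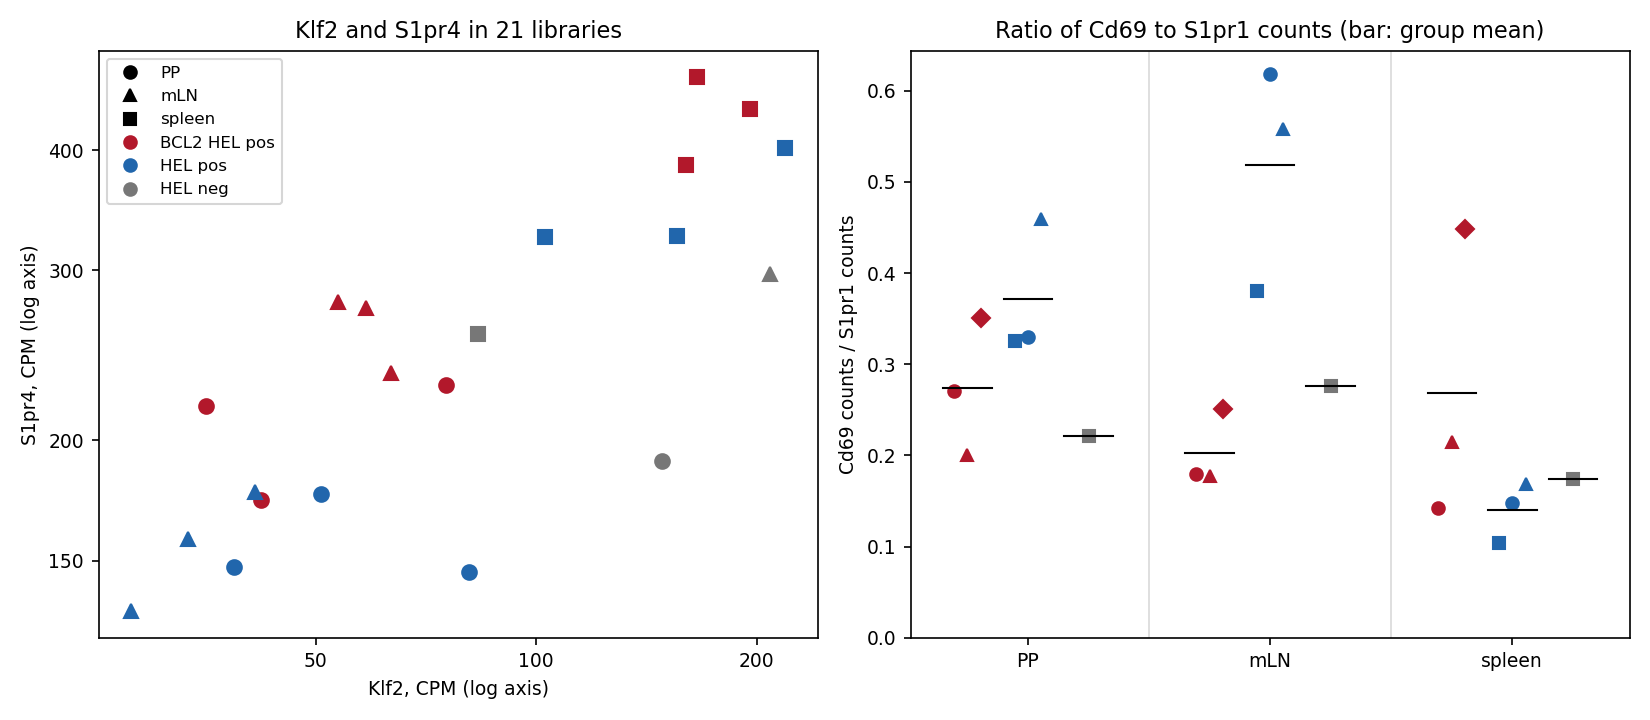
Left, Klf2 against S1pr4 in the 21 libraries (CPM, both axes logarithmic; shape is tissue, colour is cell kind); right, the ratio of Cd69 to S1pr1 counts in each library with group means. Spleen libraries of BCL2 HEL pos and HEL pos cells fill the upper right of the left panel, and the ratio of mLN HEL pos cells averages 0.519.

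Per kb of exon, S1pr1 and S1pr4 are the S1P receptor genes these cells express most. Per length, S1pr1 ran from 66.7 to 228 and S1pr4 from 65.3 to 182 CPM per kb over the 9 group means, while S1pr3 ran from 3.78 to 28.0, S1pr2 from 0.456 to 28.3 and S1pr5 from 0 to 1.25. S1pr3, a receptor of marginal zone B cells, had 133, 44.7 and 108 CPM in spleen HEL pos cells. Relative to spleen it fell by 1.60 ± 0.33 in PP (adjusted p = 0.00199) and fell by 1.83 ± 0.33 in mLN HEL pos cells (adjusted p = 0.000282). In spleen it was also lower in BCL2 HEL pos cells, which had 26.9 ± 4.95 CPM, at -1.81 ± 0.33 (adjusted p = 0.00118).

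S1pr2, which holds B cells in the germinal centre and signals against migration, was low in every BCL2 HEL pos and HEL pos library (0.518 to 10.4 CPM). The HEL neg pools had 226 CPM in PP, 74.4 CPM in mLN and 53.5 CPM in spleen. In the PP pool S1pr2 thus exceeded S1pr4 (190 CPM) by CPM, though not per kb of exon. With tissue as a covariate it was lower in BCL2 HEL pos cells, at -3.72 ± 0.33 (adjusted p = 1.81e-06), and in HEL pos cells, at -4.54 ± 0.48 (adjusted p = 8.34e-05). S1pr5, a receptor of NK cells, did not pass the filter of the 18 libraries.

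**Figure D5:**
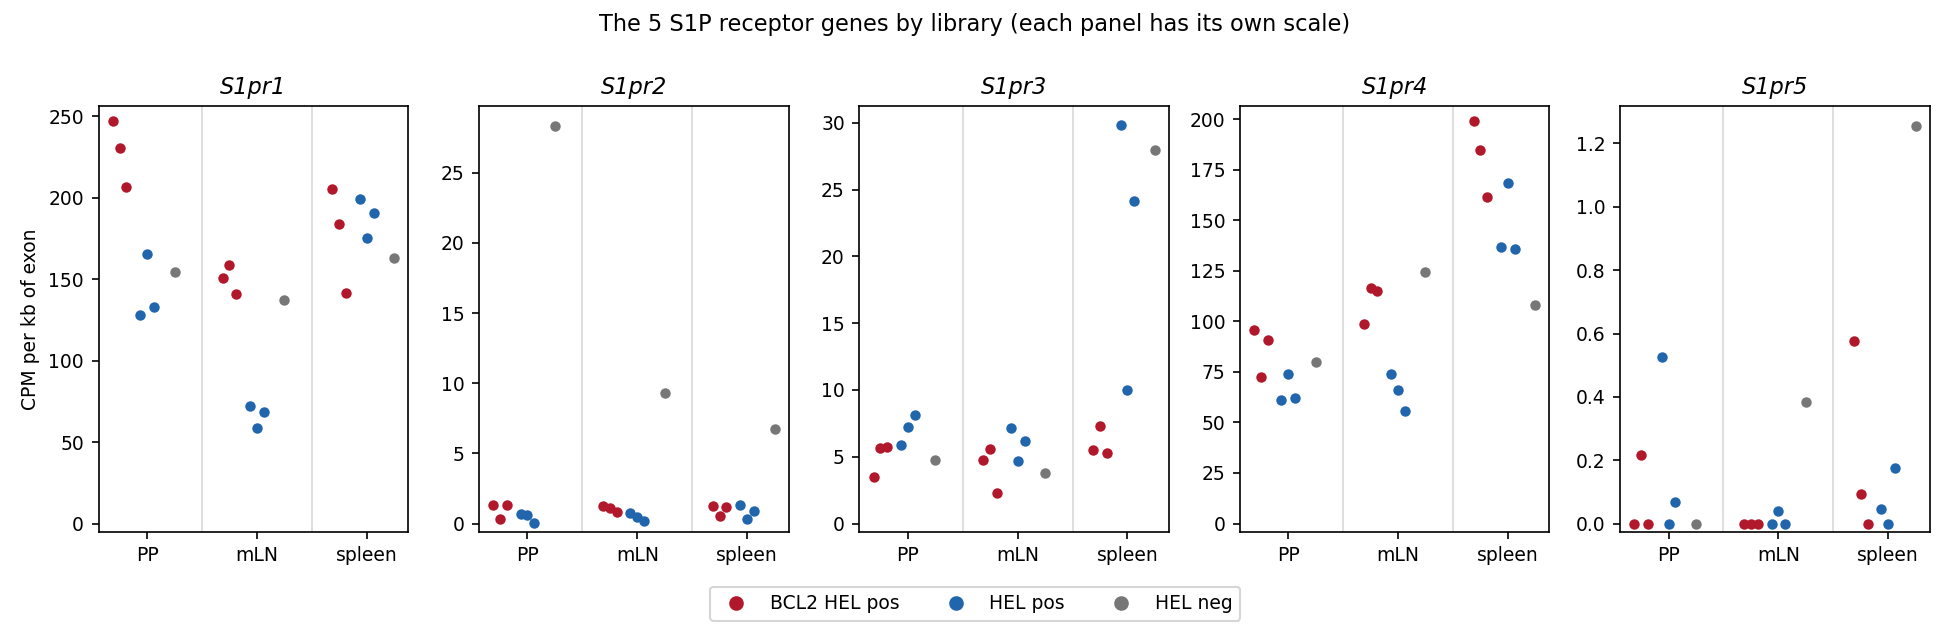
CPM per kb of exon of the 5 S1P receptor genes in each library, by tissue and cell kind, each panel with its own linear scale. S1pr1 and S1pr4 reach group means of 228 and 182 CPM per kb, S1pr2 stands out in the HEL neg pools, and S1pr3 in the HEL neg and HEL pos libraries of spleen.

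Of 8 tested genes that make, break down or export S1P, 2 rose and 4 fell in mLN relative to spleen HEL pos cells, beside 24.5% of all genes called. Their median was -0.29 on the log2 scale against -0.0098 over all genes. Those with the smallest p were Ppap2b, a lipid phosphatase (-2.88 ± 0.41), the exporter Spns2 (-3.15 ± 0.64), the S1P phosphatase Sgpp1 (-0.90 ± 0.18) and Sgpl1, the lyase that degrades S1P, which rose by 0.82 ± 0.17. In PP 1 of the 8 fell, Spns2 at -2.02 ± 0.60, and none rose, a share near the 15.4% of all genes called. Spns2 was a minor transcript: PP HEL pos cells had 2.26 CPM and mLN HEL pos cells 1.01 CPM, against 9.43 CPM in spleen. In BCL2 HEL pos cells 1 of the 8 was called against spleen, Ppap2b in mLN (-1.49 ± 0.42), beside 10% of all genes in mLN and 7.34% in PP.

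Genes that couple S1P and chemokine receptors to the cell or switch them off moved in both directions. In mLN relative to spleen HEL pos cells 3 of 23 rose and 9 fell (median -0.41), beside 24.5% of all genes called. Rgs1, a brake on receptor-coupled G proteins, rose to 60.5 CPM in mLN, against 1.00 CPM in spleen (5.92 ± 0.54, adjusted p = 1.1e-07). Rgs16, of the same family, rose to 9.51 CPM in mLN, against no counts in any spleen HEL pos library. The receptor kinase gene Grk6 fell by 1.46 ± 0.16, and Rgs14 fell by 1.27 ± 0.19.

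In PP relative to spleen HEL pos cells 3 of the 23 rose and 4 fell (median -0.28 against 0.023 over all genes), beside 15.4% of all genes called. Rgs1 stood at 4.71 ± 0.54 there. In BCL2 HEL pos cells 2 rose and none fell in PP, a share near the 7.34% of all genes called. In mLN of these cells 3 rose and 4 fell, beside 10% of all genes. Rgs1 was among those that rose in both, by 3.04 ± 0.48 in PP and 2.5 ± 0.49 in mLN. In mLN it was lower in BCL2 HEL pos cells than in HEL pos cells, at 11.2 CPM against 60.5 CPM (-2.45 ± 0.41, adjusted p = 0.000545). S1pr1 was higher in BCL2 HEL pos cells there, and a link to Rgs1 was not tested.

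Among 13 tested KLF genes other than Klf2, 1 rose and 5 fell in mLN and 1 rose and 3 fell in PP relative to spleen HEL pos cells, with medians of -0.79 and -0.31, beside 24.5% and 15.4% of all genes called. Klf10, which TGF-beta induces, rose by 1.60 ± 0.33 in mLN and 1.47 ± 0.33 in PP. Klf13 was at -0.79 ± 0.19 in mLN and -0.77 ± 0.19 in PP, and Klf3 at -1.30 ± 0.35 and -1.67 ± 0.36, all called. Among BCL2 HEL pos cells Klf10 rose and Klf6 fell in both tissues, with Klf6 at -0.81 ± 0.14 in mLN and -0.60 ± 0.14 in PP. In these cells 1 rose and 2 fell in each tissue, beside 10% of all genes called in mLN and 7.34% in PP.

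Relative to HEL pos cells, BCL2 HEL pos cells had higher Klf6 in all 3 tissues, by 0.56 ± 0.14 in PP, 0.54 ± 0.14 in mLN and 0.85 ± 0.14 in spleen. Klf13 was higher in PP by 1.03 ± 0.19 (515 CPM against 249 CPM) and in mLN by 0.75 ± 0.19 (414 CPM against 244 CPM). Klf2 was called in none of these tissues.

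Regulators placed above Klf2 were FOXO factors, which drive it in resting lymphocytes, Pik3ip1, which opposes the PI3K signal that inactivates FOXO, and the kinase chain from Map3k3 to the MEF2 factors, known best in endothelium. Of the 12 genes of this list 1 rose and 3 fell in mLN relative to spleen HEL pos cells (median -0.11), a share of called genes near the 24.5% over all genes. Among those that fell were Map3k3 at -0.97 ± 0.22 and Foxo1 at -0.73 ± 0.19, while Mef2a rose by 0.65 ± 0.16. In PP 2 rose and 1 fell, where 15.4% of all genes were called, with Mef2b at 2.10 ± 0.59, Mef2c at 0.35 ± 0.11 and Mef2d at -0.47 ± 0.14. PP HEL pos cells had 168 CPM of Foxo1 and mLN HEL pos cells 86.7 CPM, a difference of 0.95 ± 0.19 (adjusted p = 0.00377), beside 145 CPM in spleen. Between PP and spleen Foxo1 was not called (0.22, adjusted p = 0.48). In BCL2 HEL pos cells 1 of the 12 fell in each of PP and mLN, Map3k3 and Mef2d, shares near the 7.34% and 10% of all genes called.

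Trafficking receptors and integrins moved in both directions relative to spleen. Itgb7, the beta chain of the gut homing integrin, fell in all 4 comparisons (-1.12 in PP and -1.71 in mLN of HEL pos cells, and -0.64 in PP and -1.15 in mLN of BCL2 HEL pos cells). In all, 4 of 16 rose and 6 fell in PP HEL pos cells, and 4 rose and 5 fell in mLN HEL pos cells, with medians of -0.27 and 0.049. Over all genes 15.4% and 24.5% were called in these comparisons. Cxcr5, the follicle homing receptor, fell by 1.48 ± 0.15 in mLN of HEL pos cells, and Gpr183, the oxysterol receptor, rose by 0.93 ± 0.14 in PP.

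Genes that antigen receptor signals induce, the setting in which Cd69 rises and Klf2 falls in lymphocytes generally, were higher outside spleen. In HEL pos cells 11 of 12 rose in PP and 11 in mLN, and none fell, with medians of 2.64 and 2.71. Over all genes 15.4% and 24.5% were called there. In BCL2 HEL pos cells 11 rose in PP and 10 in mLN (medians 2.92 and 2.13), beside 7.34% and 10% of all genes called. Among HEL pos cells Egr2 had 106 CPM in PP and 151 CPM in mLN, against 5.00 CPM in spleen. Cd69 is an activation marker too, but of these 4 comparisons it was called in 1, PP against spleen of HEL pos cells.

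Relative to HEL pos cells, 6 of these 12 genes were lower in mLN BCL2 HEL pos cells, 3 in PP and 2 in spleen, and none was higher, with medians of -1.41, -0.13 and -0.088. Over all genes 11.7%, 10.1% and 9.37% were called in these tissues. S1pr1 was called higher in BCL2 HEL pos cells in mLN (1.16) and PP (0.67), and S1pr4 in mLN (0.74). The part of receptor signals in the levels of the members was not tested. The list was chosen with earlier results known and is no independent evidence of direction.

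The genes whose levels ran most like each member were read from log2 CPM over the 21 libraries, among the 8545 genes whose average log2 CPM reached 3. For Klf2 they were Sbk1 (Pearson's r = 0.895), Syk (0.886), Rhbdf2 (0.878) and AI467606 (0.877), with Pdxk (-0.904) among the lowest. S1pr1 ran with Myl12b (0.902), Galnt6 (0.886), Cmah (0.871) and Bank1 (0.870), and opposite to Tufm (-0.851) and Ndrg1 (-0.848). For S1pr4 the highest were 4930523C07Rik (0.939), Samhd1 (0.925), Add3 (0.923) and Gpd1l (0.922), and the lowest were Ppan (-0.922) and Ldha (-0.916).

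Cd69 had the loosest neighbours, Slc20a1 (0.797), Satb1 (0.766), B4galt5 (0.763) and B3gnt7 (0.763), with Ece1 (-0.770) and Akr7a5 (-0.736) at the other end. Over the 9 group means in place of the libraries, these coefficients kept their signs, and for Pdxk with Klf2 the value was -0.973. No member was among the 4 genes most like another member.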

How the data were processed

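The authors deposited a table of raw counts per gene symbol for 21 libraries, read on a HiSeq 2500 as single 50 bp reads per the labels' protocols. STAR, HTSeq, DESeq2 and build mm10 are named in the submitters' processing notes, with no version. TruSeq and Nextera XT library kits both appear in the labels, and whether counting used strand is not given in the sources used here, and reads of overlapping antisense genes cannot be told apart. Gene symbols keep the table's spelling, older ones included (Ppap2b).

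The counts were tested as deposited with edgeR 4.0.16 (quasi-likelihood test, TMM, filterByExpr by group, two-sided, Benjamini-Hochberg over all genes tested, R 4.3.3, limma 3.58.1), after the code was tested on simulated data. Tissue and BCL2 comparisons shared 1 fit of 18 libraries. Each SE is the log2 fold change over the square root of F. Alternatives were DESeq2 1.42.0, its size factors in edgeR, no filter, only the libraries compared, the library label as a block, leaving out libraries, and plain totals. Poisson intervals (95%) cover counting error only, and 3 counts stood at 0.263 to 0.518 CPM.

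Pairing by library label was checked on deviations from group means. In PP against spleen of HEL pos cells same-label correlations were 0.243, 0.186 and 0.104, and in mLN against spleen of BCL2 HEL pos cells 0.184, 0.101 and 0.114, so the label was taken to pair these samples. Other tissue pairs held a same-label value as low as 0.0204. Different-label values ran from -0.207 to 0.101 in HEL pos cells and from -0.137 to 0.0502 in BCL2 HEL pos cells. All same-label values of BCL2 HEL pos cells (0.0533 to 0.197) lay above the latter range. Where to draw the line was therefore a choice, and the check does not show the other samples to be unpaired. Within groups libraries correlated at 0.946 to 0.989 (Spearman), and no pair was alike enough to be 1 library deposited more than once.

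The members, gene lists and several alternatives were chosen with earlier results of these data known. Some genes of the lists are not reported here. From each list at most the 4 called genes of smallest p per comparison were to be named, and a named gene was then followed in the other comparisons. Promoters came from RefSeq and positions and exon lengths from GENCODE M21, which held 20937 of the 23337 symbols.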

Additional observations from a re-analysis of the deposited data

Results flagged for a closer look

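The change of S1pr1 in mLN relative to spleen differed between BCL2 HEL pos and HEL pos cells by 1.235 on the log2 scale in edgeR's interaction test (adjusted p = 0.0129), which is why it is listed here. In BCL2 HEL pos cells the mLN libraries had 429 to 484 CPM against 430 to 626 CPM in spleen, and in HEL pos cells 179 to 221 CPM against 534 to 606 CPM. It is 1 of 44 genes called in that test, and only 2 genes were called without mLN BCL2 HEL pos library 922.

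The same tissue change differed between HEL pos and HEL neg cells by -3.534 for Klf2, -1.377 for S1pr4 and -1.25 for S1pr1, with adjusted p of 0.00125, 0.011 and 0.0182. Leaving out 1 HEL pos library at a time gave -3.77 to -3.24 for Klf2, -1.48 to -1.25 for S1pr4 and -1.31 to -1.17 for S1pr1, all called. No HEL neg pool can be left out, and whether another pool of such cells would lie elsewhere was not tested.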

How the results depend on the processing

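No called difference of a member changed sign under any alternative run. Apart from leaving out single libraries, 115 values of called differences stayed called and 10 lost the call, while 236 values of differences not called stayed so, 25 became called and 10 changed sign. On leaving out 1 library at a time, 120 stayed called and 24 lost the call, and 353, 13 and 18 did so among those not called. The cause was not tested for the changes below. Depth limits the precision little here, since every member had at least 210 counts in every library, and the number of libraries per group limits it more. On plain library totals in place of TMM the 36 group means of the members were 0.946 to 1.08 times as large. The 4 that moved beyond their counting interval were those of the PP HEL neg pool, at 161.3 CPM for Klf2, 508.8 for S1pr1, 206.4 for S1pr4 and 112.7 for Cd69.

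DESeq2 called S1pr1 in PP against spleen HEL pos (-0.4081) and in the PP against spleen BCL2 interaction (0.7589), called Klf2 in the PP against spleen HEL interaction (-2.3486), and did not call Klf2 in BCL2 HEL pos against HEL neg (-1.1022). With DESeq2 and with its size factors in edgeR, S1pr4 in PP against mLN HEL pos was 0.0073, and with the size factors Cd69 in BCL2 HEL pos against HEL pos spleen lost its call (0.7355).

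Without the low-count filter these were called: S1pr1 in PP against spleen HEL pos (-0.4348), Klf2 (0.7023) and Cd69 (0.5888) in PP against mLN HEL pos, Cd69 in PP against spleen (0.4774) and mLN against spleen (-0.5622) BCL2 HEL pos, and Klf2 in BCL2 HEL pos against HEL pos mLN (0.7584). So were the BCL2 interactions of S1pr1 in PP against spleen (0.7889), Cd69 in mLN against spleen (-0.9433) and Klf2 in PP against mLN (-0.903), and Klf2 in HEL pos against HEL neg (-1.3563) and in the HEL interactions of PP against spleen (-2.3312) and PP against mLN (1.1888).

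With the library label as a replicate block these became called: S1pr1 in PP against spleen HEL pos (-0.4034) and BCL2 HEL pos (0.3528), Klf2 (0.6937) and Cd69 (0.6076) in PP against mLN HEL pos, Cd69 in PP against spleen (0.5038) and mLN against spleen (-0.521) BCL2 HEL pos, and the BCL2 interactions of S1pr1 in PP against spleen (0.7562) and Cd69 in mLN against spleen (-0.9161). The block changed no other call of a member. The label was taken to pair only PP and spleen of HEL pos cells and mLN and spleen of BCL2 HEL pos cells. Calls with the block in other comparisons assume a pairing. The block spans every tissue and both cell kinds in 1 fit of 18 libraries. Every p from it therefore rests in part on tissue pairs that were not taken as paired. BCL2 HEL pos and HEL pos groups share no label, and HEL neg libraries share only the word Pool, so no paired analysis was possible between cell kinds.

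With only the libraries compared, S1pr4 in PP against mLN HEL pos was 0.0296, S1pr1 in PP against mLN BCL2 HEL pos (0.6041), Cd69 in BCL2 HEL pos against HEL pos spleen (0.7531) and S1pr1 in PP (0.6632) lost the call, and Klf2 in mLN (0.7499) gained it. With the pools as the only HEL pos libraries, BCL2 HEL pos against HEL pos gave 1.101 for Cd69 in spleen and 0.5693 for S1pr4 in mLN, neither called, and 0.1293 for Cd69 in mLN.

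With 399 and Pool left out of PP HEL pos cells, Cd69 in PP against spleen HEL pos (1.0397) and S1pr1 in BCL2 HEL pos against HEL pos PP (0.4705) lost the call, and S1pr4 in PP against mLN HEL pos (0.1585), Klf2 in BCL2 HEL pos against HEL pos PP (0.0107) and the S1pr4 BCL2 interaction of PP against spleen (-0.0867) changed sign. Without the pooled HEL pos libraries, Cd69 in BCL2 HEL pos against HEL pos spleen (0.589) lost the call, the Klf2 HEL interaction of PP against spleen (-2.7102) gained it, and S1pr4 in PP against mLN HEL pos (0.1553), Klf2 in BCL2 HEL pos against HEL pos PP (0.1545) and the Klf2 BCL2 interaction of PP against spleen (0.048) changed sign.

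Leaving out 1 library at a time gave these ranges. For tissues of HEL pos cells, S1pr1 in PP against spleen ran from -0.5463 to -0.3589 and S1pr4 in PP against mLN from -0.0947 to 0.0953. For BCL2 HEL pos cells, Klf2, S1pr1 and Cd69 in PP against mLN ran from -0.6074 to 0.0169, 0.5323 to 0.6784 and 0.9163 to 1.2038, and Cd69 from 0.2467 to 0.8331 in PP and -0.7821 to -0.2013 in mLN against spleen. For BCL2 HEL pos against HEL pos, Klf2, S1pr1 and Cd69 in spleen ran from -0.0839 to 0.4114, -0.1984 to 0.0333 and 0.3778 to 0.9829, and Klf2 and S1pr4 in PP from -0.5661 to 0.177 and 0.3116 to 0.4981. The BCL2 interactions of Klf2 and S1pr4 in PP against spleen and S1pr1 in mLN against spleen ran from -0.714 to 0.0557, -0.0119 to 0.1858 and 1.1236 to 1.3578. HEL pos against HEL neg ran from -2.048 to -0.4441 for Klf2, -0.6118 to 0.0368 for S1pr1, -0.6232 to 0.0572 for S1pr4 and -0.1162 to 0.2307 for Cd69, and BCL2 HEL pos against HEL neg from -1.7119 to -0.5291 for Klf2 and -0.0524 to 0.4037 for S1pr4. The HEL interactions of Klf2 in PP against spleen and Cd69 in mLN against spleen ran from -2.6715 to -2.0176 and -0.1915 to 0.1286.

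DESeq2 called 249 genes against 132 in PP against mLN BCL2 HEL pos, 1551 against 990 in HEL pos against HEL neg, 60, 163 and 28 against 1, 44 and 1 in the BCL2 interactions of PP against spleen, mLN against spleen and PP against mLN, and 170, 628 and 147 against 30, 365 and 19 in the HEL interactions in the same order. In the other comparisons its count was within 1.5 times. Over all alternatives the count ran from 640 to 2385 for PP against spleen HEL pos, 209 to 1634 for PP against mLN HEL pos, 2 to 192 for the mLN against spleen BCL2 interaction and 244 to 628 for the mLN against spleen HEL interaction. With the block 1634 genes in place of 1012 were called in PP against mLN HEL pos, 1388 in place of 838 and 480 in place of 132 in PP against spleen and PP against mLN BCL2 HEL pos.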

Other observations

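Genes of the immediate early response, which cell handling can induce as well as signalling, were mostly lower outside spleen where they were called. In PP relative to spleen HEL pos cells 1 of 16 tested rose and 5 fell (median -0.46), where 15.4% of all genes were called, among them Jun (-1.34 ± 0.22), Fosb (-3.60 ± 0.92) and Fos (-2.23 ± 0.67). In mLN relative to spleen HEL pos cells none rose and 4 fell, a share near the 24.5% of all genes called there, with Jun at -1.17 ± 0.22 and Zfp36 at -0.89 ± 0.21. Among BCL2 HEL pos cells 4 fell in PP and none was called in mLN, beside 7.34% and 10% of all genes called. Klf2 fell in each of these 4 comparisons, and the part of handling in its level was not tested.

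Interferon-stimulated genes are of note because type I interferon induces Cd69. In spleen 5 of 15 were higher and none lower in BCL2 HEL pos than in HEL pos cells (median 0.32), beside 9.37% of all genes called. Oasl2 had 47.9 CPM against 17.5 CPM (1.47 ± 0.20), and the Cd69 difference in spleen was 0.76, called. In PP 4 were higher and in mLN 1 was higher and 2 lower in BCL2 HEL pos cells, beside 10.1% and 11.7% of all genes called. Cd69 was called in neither tissue. In mLN relative to spleen HEL pos cells 2 rose and none fell, Isg15 (1.14 ± 0.38) and Usp18 (0.72 ± 0.26), and in PP relative to spleen none rose and 2 fell. Over all genes 24.5% and 15.4% were called there, so neither count stands above that share. In PP relative to mLN HEL pos cells 6 of 15 fell and none rose (median -0.97), beside 8.86% of all genes called. Usp18 had 19.9 CPM in PP against 45.8 CPM in mLN (-1.21 ± 0.27). Against spleen 5 of 15 fell in each of PP and mLN of BCL2 HEL pos cells, beside 7.34% and 10% of all genes called. Irf7 of these cells had 34.8 CPM in mLN against 118 CPM in spleen (-1.77 ± 0.26). The part of interferon in the Cd69 level was not tested. In mLN against spleen of BCL2 HEL pos cells Cd69 was not called on all libraries. It was called lower with the library label as a block (-0.521), without the low-count filter (-0.5622) and without spleen library 922 (-0.7821). In PP HEL pos cells it stood at 127 to 186 CPM against 83.8 to 117 CPM in mLN.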
